A study of Mus musculus with 8 samples.

Results

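The genes described here are 10 genes that mark mast cells, basophils and eosinophils, the granulocytes of allergic and antiparasitic responses. They were chosen by name, with earlier results of these data known. They were found by their Ensembl identifiers in the deposited table of raw counts, where all 10 were present among 43346 genes. All 10 also passed the filter on low counts that left 15511 genes for testing. RNA was sequenced from osteocyte-enriched fractions of bone (osteocytes are the cells enclosed in the mineralised matrix) of C57BL/6 mice aged 12 weeks. No treatment or genetic change is given for any group. There were 3 libraries from the femur, a long bone, and 3 from the frontal bone and 2 from the parietal bone, both flat bones of the skull vault. Whether each library is 1 animal, a pool or a repeat preparation is not stated in the labels. The p-values therefore reflect the spread among libraries, some of which may be technical.

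Mast cells, basophils and eosinophils all arise from hematopoietic progenitors in bone marrow. Basophils and eosinophils complete their maturation there and enter the blood, whereas mast cell progenitors leave the marrow and mature in tissues. Each type stores preformed proteins in granules, proteases and histamine in mast cells and basophils, and toxic cationic proteins in eosinophils. Mast cells and basophils carry the high-affinity receptor for IgE, and crosslinking of the bound antibody releases the granules. Mast cells depend on the receptor KIT for survival, while eosinophils depend on interleukin 5.

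Gene totals ran from 6259229 to 13461622 counts per library, and the 10 genes together held 0.0995 to 0.146% of the counts in the femur libraries and 0.333 to 0.415% in the calvarial ones. Osteocyte genes (Dmp1, Sost, Mepe, Phex and Fgf23) held 2.25 to 4.49% in femur and 0.0704 to 0.133% in calvaria, so the summed level of these markers of the labelled cell type was lower in the skull bones. By edgeR 4 of the 5 were called lower in calvaria, and Fgf23 was not called (-0.63, adjusted p = 0.141). Genes of other blood cells moved the other way. The 10 genes taken as pan-leukocyte held 0.192 to 0.358% of counts in femur and 0.462 to 0.536% in calvaria, neutrophil granule genes 1.69 to 4.46% and 6.60 to 8.86%, and erythroid genes 0.0812 to 0.164% and 0.529 to 0.714%. The part of these shifts in blood cell RNA in the values that follow was examined only by rescaling to leukocyte genes. In these bulk samples, fewer cells of a type and less RNA per cell cannot be told apart.

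The protease genes Mcpt8, Prss34 and Cpa3, the IgE receptor genes Fcer1a and Ms4a2, and the major basic protein genes Prg2 and Prg3 were about 2 to 4 times higher in the calvarial bones than in the femur, while the genes for the receptor KIT and the transcription factor GATA2 were higher in the femur. With the mean of frontal and parietal bone set against femur, 7 of the 10 genes were called higher, 2 lower, and Epx was not called, by edgeR's quasi-likelihood test with Benjamini-Hochberg adjustment over all genes tested and a threshold of 0.05. Of all genes tested, 29.6% were called higher and 31.4% lower in this comparison. In the same 7 genes every calvarial library lay above every femur library, against 26.0% of all genes tested, and in the same 2 every calvarial library lay below, against 27.5%. The median log2 fold change of the 10 genes was 1.70, and that of all genes tested was 0.01. Since the list was chosen with earlier results known, these contrasts are descriptions.

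**Figure D1:**
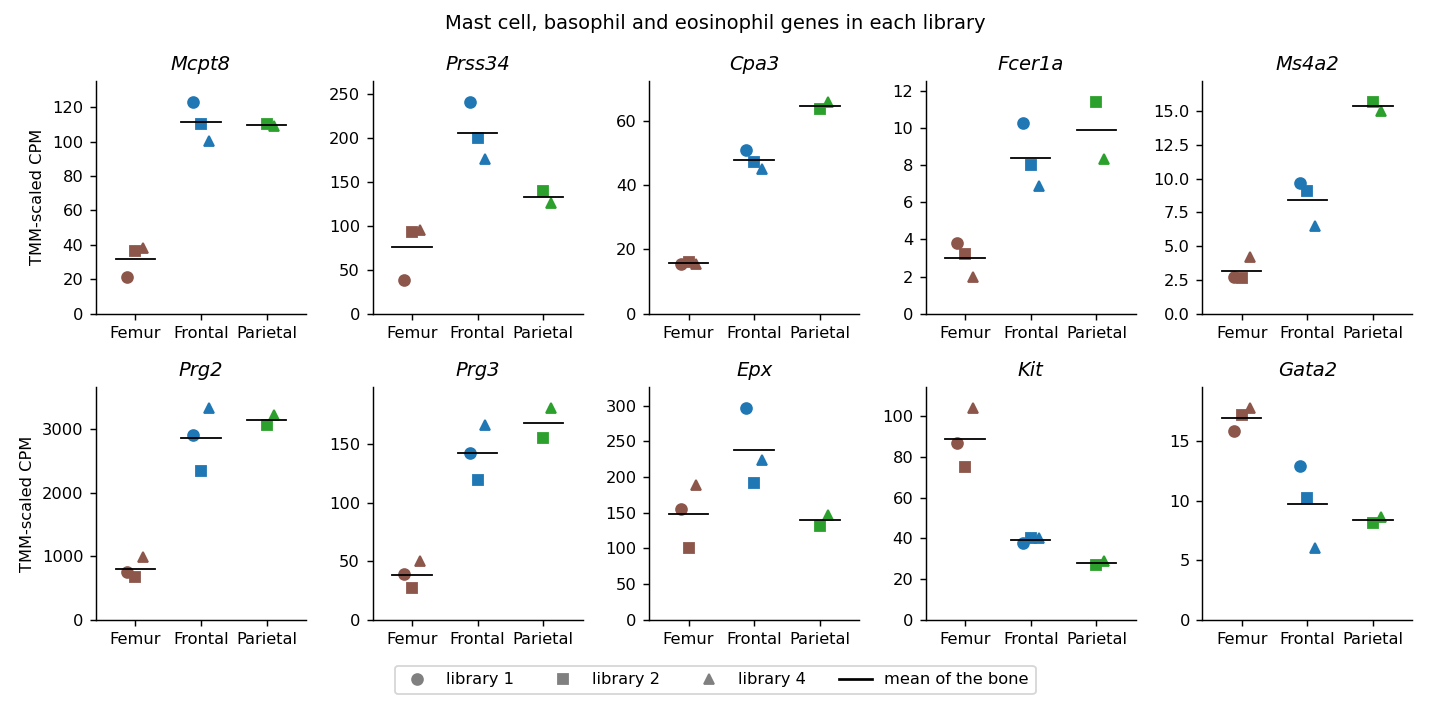
Level of each of the 10 genes in each library, in TMM-scaled CPM (vertical axes, from 0, a scale per gene), by bone (horizontal axis). Points are libraries, with the shape giving the library number, and bars are bone means. The femur points lie below all calvarial points for 7 genes, above them for Kit and Gata2, and among them for Epx.

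GATA factors, which bind the letters GATA, act in all these lineages. The promoters of the 10 genes were therefore searched for AGATAA and TGATAA, which differ in their first letter and so cannot share a position, on both strands, in RefSeq windows of 250 bases before and 50 after each gene's start on GRCm38.p6. Windows were found for 9 of the 10 genes, all but Prg2, and 5 of their 11 windows, each of a different gene, held a match, as did 18.6% of the 32851 windows in the table. The windows of Kit, which start at 75574737 and 75574741, nearly coincide. All 5 genes with a match were called higher in calvaria, but so were Mcpt8, which had none, and 29.6% of all genes tested. Whether a match goes with the direction was not tested. The 250 upstream bases of those 5 genes are shown because they are the genes with a match. Each is read 5′ to 3′ on the strand of its gene. Capitals mark the match, with TTATCT and TTATCA being the same motifs on the other strand.
Cpa3: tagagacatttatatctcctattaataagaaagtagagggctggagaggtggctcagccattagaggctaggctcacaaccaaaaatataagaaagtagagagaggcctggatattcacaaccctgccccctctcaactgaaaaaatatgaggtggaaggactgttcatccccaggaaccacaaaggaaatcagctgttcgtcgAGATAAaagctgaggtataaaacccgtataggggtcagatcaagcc
Ms4a2: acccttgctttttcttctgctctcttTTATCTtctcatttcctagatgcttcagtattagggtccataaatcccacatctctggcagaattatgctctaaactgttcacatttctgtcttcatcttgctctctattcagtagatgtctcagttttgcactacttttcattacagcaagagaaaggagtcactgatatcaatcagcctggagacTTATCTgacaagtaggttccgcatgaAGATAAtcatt
Fcer1a: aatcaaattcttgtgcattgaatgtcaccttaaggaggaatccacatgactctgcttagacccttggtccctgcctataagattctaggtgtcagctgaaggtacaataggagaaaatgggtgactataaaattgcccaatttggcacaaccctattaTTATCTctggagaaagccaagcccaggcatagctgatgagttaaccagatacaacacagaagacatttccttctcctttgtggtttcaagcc
Prg3: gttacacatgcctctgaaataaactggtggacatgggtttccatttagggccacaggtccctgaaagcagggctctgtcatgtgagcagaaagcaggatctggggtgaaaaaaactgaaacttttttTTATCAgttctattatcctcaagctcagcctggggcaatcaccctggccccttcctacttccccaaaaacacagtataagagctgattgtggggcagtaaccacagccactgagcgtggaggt
Prss34: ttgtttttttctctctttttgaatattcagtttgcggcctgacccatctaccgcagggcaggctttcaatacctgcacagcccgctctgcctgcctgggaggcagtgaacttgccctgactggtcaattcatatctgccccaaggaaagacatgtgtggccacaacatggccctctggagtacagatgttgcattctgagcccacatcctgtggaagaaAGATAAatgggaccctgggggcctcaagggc
They lie at chr3:20242182-20242431 on the minus strand for Cpa3, chr19:11623720-11623969 on the minus strand for Ms4a2, chr1:173227230-173227479 on the minus strand for Fcer1a, chr2:84987965-84988214 on the plus strand for Prg3 and chr17:25298144-25298393 on the plus strand for Prss34. Ms4a2 held 3 matches and the others 1 each. The match of Cpa3 began at position -46 from the start, that of Prss34 at -31, that of Fcer1a at -92 and that of Prg3 at -123. The windows of Mcpt8, Gata2, Kit and Epx held neither AGATAA nor TGATAA on either strand. A match describes the sequence and does not show that a factor binds there.

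Basophil and mast cell proteases were higher in calvaria. Mcpt8, which encodes a serine protease made by mouse basophils, lies on chromosome 14 at 56082166 to 56085273 (GRCm38, minus strand, protein-coding, exons summing to 998 bases). Its level was 21.5, 36.4 and 38.0 CPM (counts relative to each library's TMM-scaled total) in femur libraries 1, 2 and 4. Frontal libraries 1, 2 and 4 gave 123, 110.5 and 100.4 CPM, and parietal libraries 2 and 4 gave 110.3 and 109.2 CPM. The lowest calvarial library thus lay far above the highest femur library. The means were 32.0 ± 9.13 CPM (SD, n = 3) in femur and 110.7 ± 8.05 CPM (SD, n = 5) in calvaria. The log2 fold change was 1.78 ± 0.18 (SE, edgeR adjusted p = 6.74e-06), a 3.43-fold difference.

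Prss34, which encodes a tryptase-like protease of basophils and mast cells, lies on chromosome 17 at 25298394 to 25300165 (plus strand, exons of 1220 bases). It gave 38.7, 93.1 and 94.9 CPM in the femur libraries, 240, 200 and 176 CPM in the frontal ones, and 140 and 126 CPM in the parietal ones. The bones did not overlap, with frontal highest, and femur library 1 held less than the other 2 femur libraries. The log2 fold change of calvaria against femur was 1.12 ± 0.25 (SE, edgeR adjusted p = 0.00255), or 2.17-fold. It was 1.44 ± 0.28 in frontal bone (adjusted p = 0.00104) and 0.81 ± 0.30 in parietal bone (adjusted p = 0.0384). The parietal call was lost without frontal library 2 (adjusted p = 0.0557), frontal library 4 (0.0529), parietal library 2 (0.177) or parietal library 4 (0.105), with only femur and parietal libraries in the fit (0.0528), and on a scale set by leukocyte genes (0.822). It was also lost with a term for library number in the fit.

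Cpa3, the carboxypeptidase of mast cell granules that basophils also make, lies on chromosome 3 at 20215620 to 20242181 (minus strand, exons of 1517 bases). Its values were 15.5, 16.0 and 15.4 CPM in femur, 50.8, 47.3 and 44.9 CPM in frontal bone, and 63.7 and 65.8 CPM in parietal bone. The 3 bones formed 3 separate groups, and the femur libraries had a mean of 15.6 ± 0.301 CPM (SD, n = 3). Calvaria exceeded femur by a log2 fold change of 1.83 ± 0.13 (SE, edgeR adjusted p = 3.72e-07), which was the smallest adjusted p of the 10 genes.

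Both IgE receptor genes were higher in calvaria, at low levels. Fcer1a, whose product is the subunit that binds IgE, lies on chromosome 1 at 173221284 to 173227214 (minus strand, exons of 998 bases). It had 22, 34 and 17 counts in the femur libraries, which were 3.78, 3.21 and 1.98 CPM. Frontal libraries had 10.3, 8.03 and 6.88 CPM, and parietal libraries 11.4 and 8.34 CPM, all above the femur. Calvaria exceeded femur by 1.62 ± 0.27 on the log2 scale (SE, edgeR adjusted p = 0.000277).

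Ms4a2, whose product is the signal-amplifying beta subunit of the same receptor, lies on chromosome 19 at 11615523 to 11623719 (minus strand, exons of 2813 bases). Its counts were 16, 28 and 36 in femur, 81, 95 and 46 in frontal bone, and 205 and 155 in parietal bone. As CPM these were 2.75, 2.64 and 4.20 in femur, 9.68, 9.08 and 6.46 in frontal bone, and 15.7 and 15.0 in parietal bone. Frontal libraries lay between the other 2 bones without overlap. The log2 fold change against femur was 1.82 ± 0.24 for calvaria (edgeR adjusted p = 4.82e-05), 1.39 ± 0.26 for frontal bone and 2.25 ± 0.27 for parietal bone.

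Among the eosinophil genes, both major basic protein genes rose and the peroxidase gene did not follow them. Prg2, which encodes the eosinophil major basic protein that forms the crystalline core of the granule, lies on chromosome 2 at 84980461 to 84983632 (plus strand, exons of 838 bases). It was the most abundant of the 10 in every library, at 749, 669 and 982 CPM in femur, 2902, 2334 and 3324 CPM in frontal bone, and 3063 and 3221 CPM in parietal bone. Every calvarial library had more than the highest femur library by a wide margin. The means were 800 ± 163 CPM (SD, n = 3) in femur and 2969 ± 389 CPM (SD, n = 5) in calvaria, with a log2 fold change of 1.90 ± 0.17 (SE, edgeR adjusted p = 3.19e-06).

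Prg3, a neighbouring gene for a second form of major basic protein, lies on chromosome 2 at 84988215 to 84993886 (plus strand, exons of 949 bases). Its femur values were 39.2, 26.9 and 49.8 CPM, its frontal values 142, 119 and 166 CPM, and its parietal values 155 and 181 CPM. Calvaria was higher by a log2 fold change of 2.00 ± 0.20 (SE, edgeR adjusted p = 5.83e-06), a 4.01-fold difference and the largest of the 10. The 2 genes kept a near-constant ratio in most libraries, with 0.0402 to 0.0523 Prg3 counts per Prg2 count in femur and 0.049 to 0.0561 in calvaria. Of all pairs of the 10 genes, Prg2 and Prg3 had the most similar profile over the 8 libraries, with a root mean square difference of 0.119 in centred log2(CPM + 1).

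Epx, which encodes eosinophil peroxidase, the granule enzyme that makes hypohalous acids, lies on chromosome 11 at 87864000 to 87875536 (minus strand, exons of 2737 bases). It gave 155, 101 and 189 CPM in femur, 296, 192 and 224 CPM in frontal bone, and 132 and 147 CPM in parietal bone. The parietal values fell among the femur values, and the frontal values lay above all others. The log2 difference of calvaria from femur was 0.30 ± 0.20 (SE, edgeR adjusted p = 0.213) and was not called. Without femur library 4 it was 0.51 and was called (adjusted p = 0.0491). Frontal bone was called higher than femur, by 0.68 ± 0.22 (adjusted p = 0.0195), and this call was lost without femur library 1 (adjusted p = 0.0502), femur library 2 (0.0797) or frontal library 1 (0.0989). Parietal bone differed from femur by -0.09 ± 0.24 (adjusted p = 0.783).

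The proportions among the granule genes differed between bones. Femur libraries 1, 2 and 4 held 0.207, 0.150 and 0.192 Epx counts per Prg2 count, frontal libraries 0.102, 0.0823 and 0.0674, and parietal libraries 0.043 and 0.0457. The 3 bones did not overlap in this ratio, which fell from a mean of 0.183 ± 0.0292 (SD, n = 3) in femur to 0.0839 ± 0.0174 (SD, n = 3) in frontal and 0.0443 ± 0.00189 (SD, n = 2) in parietal bone. Prss34 counts per Mcpt8 count were 1.80, 2.55 and 2.49 in femur, 1.95, 1.81 and 1.76 in frontal bone, and 1.27 and 1.15 in parietal bone, the parietal libraries being lowest. Cpa3 counts per Mcpt8 count were 0.72, 0.438 and 0.405 in femur, 0.413, 0.428 and 0.448 in frontal bone, and 0.577 and 0.602 in parietal bone. Femur library 1 had the highest ratio there and also the fewest Mcpt8 counts, 125. A ratio within a library does not depend on how the library is scaled, but the pairs were chosen after the values were seen, so the ratios are descriptions and were not tested.

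**Figure D2:**
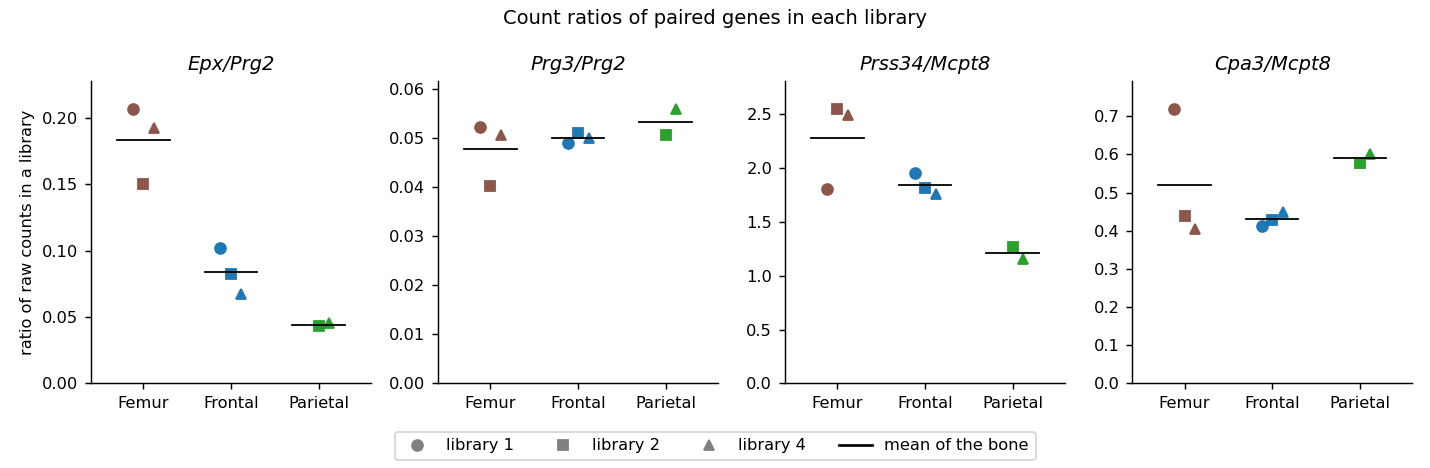
Ratio of raw counts of a pair of genes in each library (vertical axes, from 0, a scale per pair), by bone (horizontal axis), with points for libraries and bars for bone means. Epx per Prg2 falls from 0.183 in femur to 0.0839 in frontal and 0.0443 in parietal bone, while Prg3 per Prg2 stays between 0.0402 and 0.0561.

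The 2 genes for regulators of these lineages were higher in femur. Kit, whose product is the receptor for stem cell factor on mast cells, hematopoietic progenitors and melanocytes, lies on chromosome 5 at 75574916 to 75656722 (plus strand, exons of 8911 bases). It gave 86.8, 75.1 and 103.8 CPM in femur, 37.8, 40.3 and 40.2 CPM in frontal bone, and 27.1 and 28.8 CPM in parietal bone, so the lowest femur library was well above the highest calvarial one. The log2 fold change of calvaria against femur was -1.42 ± 0.13 (SE, edgeR adjusted p = 2.53e-06), a level 2.67-fold higher in femur. Of the counts of the 10 genes, Kit held 6.94 to 7.7% in femur libraries and 0.726 to 1.31% in calvarial ones, whereas Prg2 held 64.3 to 66.4% and 75.9 to 82.4%.

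Gata2, which encodes a transcription factor of blood progenitors, mast cells and basophils that endothelium also makes, lies on chromosome 6 at 88193891 to 88207032 (plus strand, exons of 5398 bases). Femur libraries had 15.8, 17.2 and 17.7 CPM, frontal libraries 12.9, 10.2 and 6.04 CPM, and parietal libraries 8.10 and 8.63 CPM. The frontal libraries were the most spread, with an SD of 3.46 CPM (n = 3), and still lay below every femur library. Against femur, the calvarial log2 fold change was -0.90 ± 0.21 (SE, edgeR adjusted p = 0.00322). In parietal bone it was -1.02 ± 0.28 (adjusted p = 0.00792), a call lost without parietal library 2 (adjusted p = 0.0607).

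Kit and Gata2 are also expressed by cells other than granulocytes, and markers of one such type moved with them. All 8 endothelial genes were called lower in calvaria, with a median log2 fold change of -1.42, for example Robo4 (-1.81), Tek (-1.57) and Emcn (-1.35). Their share of counts was 0.0468 to 0.0540% in femur and 0.0206 to 0.0275% in calvaria. Of 10 stem and progenitor genes, 3 were higher, 4 lower and 3 not called, where 29.6% of all genes tested were called higher and 31.4% lower. Among the 10 were Cd48 at 2.02, Myb at 0.95 and Procr, a marker of stem cells that endothelium shares, at -2.30. The summed share of the 10 was 0.0311 to 0.0376% in femur and 0.0332 to 0.0440% in calvaria. The 6 melanocyte genes summed to at most 0.000273% of a library, and Pmel, the one that passed the filter, was not called. The part of endothelial or progenitor cells in the Kit and Gata2 differences was not tested.

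On a scale per kilobase of exon, the 10 genes kept Prg2 at the top in each bone, at 955, 3405 and 3750 CPM per kb in femur, frontal and parietal bone. In femur the next were Prss34 (61.9 CPM per kb), Epx (54.1), Prg3 (40.7) and Mcpt8 (32.1), then Cpa3 (10.3), Kit (9.94), Gata2 (3.13), Fcer1a (3.00) and Ms4a2 (1.14). From Prss34 to Mcpt8, neighbours in that order lay within their SDs of each other, as did Cpa3 and Kit, and Gata2 and Fcer1a. In frontal bone the order after Prg2 was Prss34 (168 CPM per kb), Prg3 (150), Mcpt8 (112), Epx (86.8), Cpa3 (31.4), Fcer1a (8.41), Kit (4.42), Ms4a2 (2.99) and Gata2 (1.80), and Prss34 and Prg3 lay within their SDs of each other. In parietal bone Prg3 (177 CPM per kb) came second, followed by Mcpt8 (110) and Prss34 (109), which lay within their SDs of each other, Epx (50.9), Cpa3 (42.7), Fcer1a (9.89), Ms4a2 (5.46), Kit (3.14) and Gata2 (1.55). Exon sums from GENCODE M21 were used as lengths, which may exceed the transcripts present.

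Set one bone at a time against femur, 8 of the 10 genes were called higher and 2 lower in frontal bone, where 27.2% of all genes tested were called higher and 28.5% lower. In parietal bone 7 were called higher and 2 lower, against 27.1% and 28.6% of all genes tested. These comparisons share the 3 femur libraries. The log2 fold changes in frontal and parietal bone were 1.79 and 1.77 for Mcpt8, 1.61 and 2.05 for Cpa3, and 1.51 and 1.74 for Fcer1a. They were 1.83 and 1.97 for Prg2, 1.89 and 2.12 for Prg3, and -1.17 and -1.66 for Kit.

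**Figure D3:**
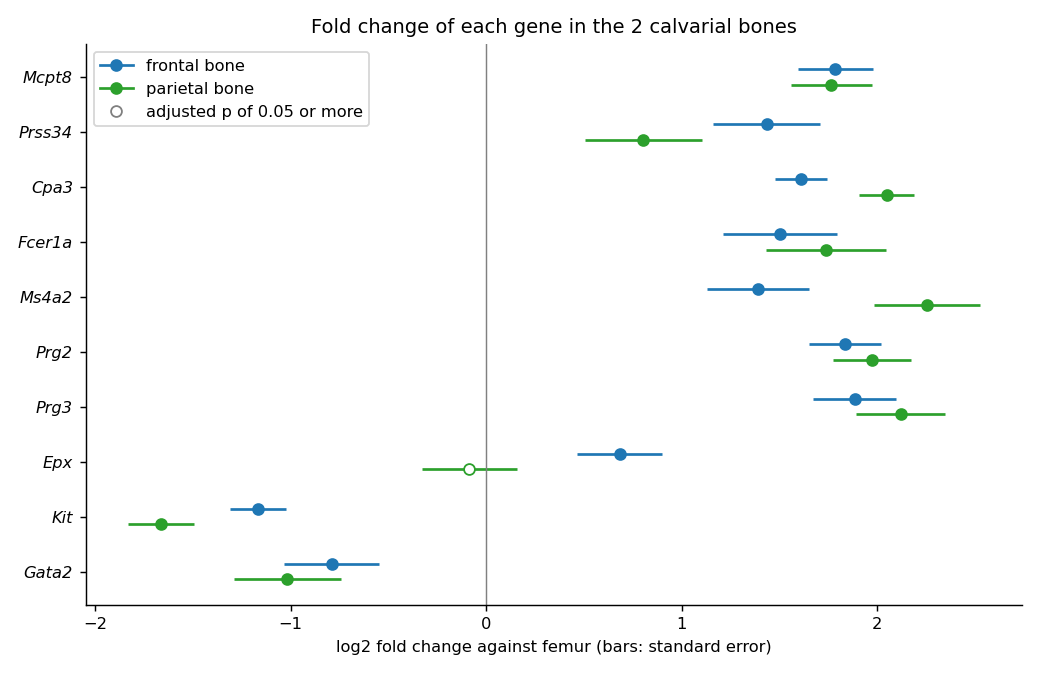
Log2 fold change of each gene (vertical axis) in frontal and in parietal bone against femur (horizontal axis), with bars of 1 standard error and open points where the edgeR adjusted p was 0.05 or more. In frontal bone 8 genes lie above 0. Kit and Gata2 lie below 0 in both bones, and parietal Epx, at -0.09, is the open point.

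Between the 2 calvarial bones, none of the 10 genes was called by edgeR, where 3.91% of all genes tested were called higher in frontal and 3.29% higher in parietal bone. With a replicate block (a term for library number) in the fit, edgeR called no gene between these bones. At an unadjusted p under 0.05 there were 4 of the 10, namely Cpa3, Ms4a2, Kit and Epx. Frontal bone differed from parietal bone by -0.44 ± 0.14 for Cpa3 (edgeR adjusted p = 0.0679) and by -0.86 ± 0.25 for Ms4a2 (adjusted p = 0.0588) on the log2 scale. The differences were 0.50 ± 0.16 for Kit (adjusted p = 0.0768) and 0.77 ± 0.25 for Epx (adjusted p = 0.0735). In those 4 genes and in Prss34 (0.63 ± 0.30, adjusted p = 0.197), the 3 frontal and 2 parietal libraries did not overlap. Shares over all genes tested are not given for either count, so both only describe these genes. DESeq2 called Ms4a2 (adjusted p = 0.042), Kit (0.0477) and Epx (0.0213). With edgeR, Ms4a2 was called without femur library 4 (adjusted p = 0.0427), Epx without femur library 4 (0.0483) or frontal library 2 (0.0392), and Prss34 without femur library 1 (0.0236). The differences of Mcpt8 (0.02 ± 0.20) and Prg2 (-0.14 ± 0.20) were smaller than their standard errors.

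Because leukocyte genes as a whole were higher in calvaria, the comparison was repeated with libraries scaled to the summed counts of the 10 pan-leukocyte genes, which were 12001 to 66278 per library. On that scale the median log2 fold change of all genes tested moved from 0.01 to -0.81, and 6.32% of genes were called higher and 53.2% lower in calvaria. Of the 10 genes, 5 were called higher, Mcpt8 (1.01 ± 0.22, adjusted p = 0.000588), Cpa3 (0.99 ± 0.24, 0.00175), Ms4a2 (1.06 ± 0.29, 0.00402), Prg2 (1.08 ± 0.24, 0.000822) and Prg3 (1.19 ± 0.26, 0.000608). The 2 called lower were Kit (-2.24 ± 0.22, adjusted p = 1.42e-07) and Gata2 (-1.73 ± 0.26, 1.96e-05). Fcer1a (0.76 ± 0.35, adjusted p = 0.0731) and Prss34 (0.38 ± 0.23, 0.169) were not called there, and the direction of Epx turned to -0.54 ± 0.25 (0.074). In parietal bone alone Epx was called lower than in femur on this scale (-0.89, adjusted p = 0.027). The pan-leukocyte genes that set the scale did not move together. On it Cd52 was still called higher in calvaria (1.575), Laptm5 (-1.171) and Vav1 (-0.777) were called lower, and the rest were not called. The values for the 10 genes described therefore depend on which leukocyte genes set the scale. Per unit of leukocyte RNA as measured by the 10 pan-leukocyte genes, 3 of the 5 protease and IgE receptor genes were still called higher in calvaria. So were 2 of the 3 eosinophil granule genes, while both regulators, Kit and Gata2, were called lower.

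**Figure D4:**
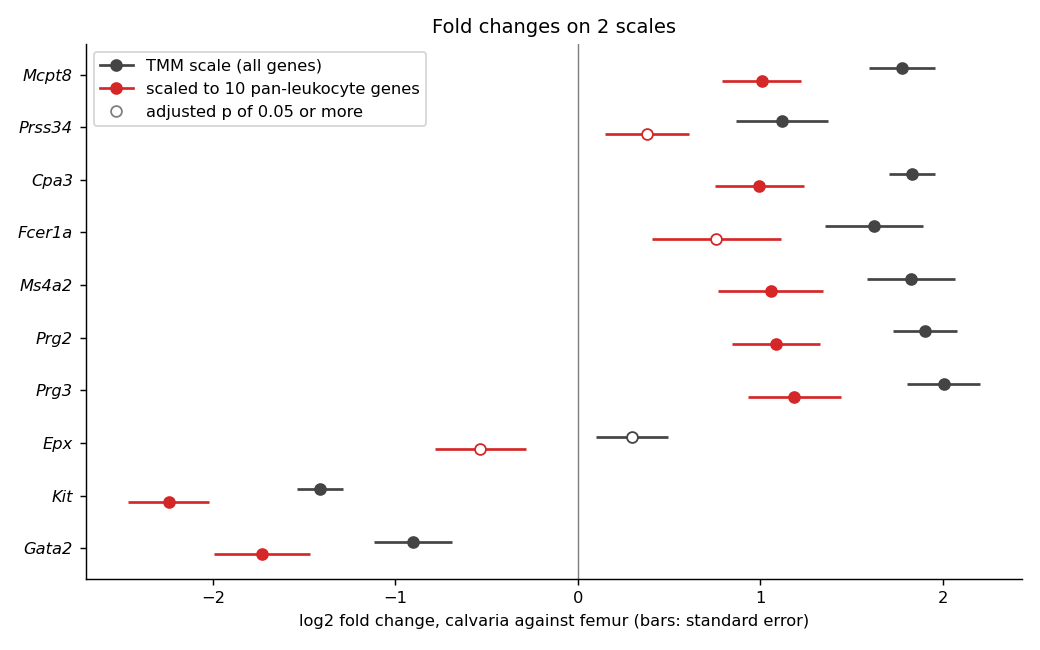
Log2 fold change of each gene (vertical axis) for calvaria against femur (horizontal axis), with libraries scaled by TMM over all genes or to 10 pan-leukocyte genes. Bars are 1 standard error, and open points have an edgeR adjusted p of 0.05 or more. All 10 genes lie lower on the leukocyte scale, Mcpt8 moving from 1.78 to 1.01 and Kit from -1.42 to -2.24, and Epx crosses 0.

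Other eosinophil genes gave calls in the direction of Prg2 and Prg3. Of 8, all tested, 7 were called higher in calvaria and none lower, with a median log2 fold change of 1.93. On the leukocyte scale 7 were also higher. Among all genes tested, 29.6% were called higher, and 6.32% on the leukocyte scale. Ear2 (2.72 ± 0.17, edgeR adjusted p = 2.15e-07), Ear1 (2.48) and Ear6 (2.19) encode eosinophil-associated ribonucleases, whose near-identical copies make the split of reads between them uncertain. The calls of the Ear genes may therefore not be independent of each other. Chosen after their values were seen, Siglecf, a surface lectin of eosinophils, was higher by 1.53 ± 0.24, and Ccr3, the eotaxin receptor, by 1.68 ± 0.25. The gene not called was Il5ra, which encodes the interleukin 5 receptor, at 0.74 ± 0.33 (adjusted p = 0.0668). Alox15, a lipoxygenase gene of eosinophils, was the one of the 8 called between the calvarial bones, higher in frontal by 1.12 ± 0.22 (adjusted p = 0.0281, or 0.237 and no longer called on the leukocyte scale), with 71.1, 62.5 and 102.5 CPM in frontal and 34.3 and 38.0 CPM in parietal libraries. Epx and Prss34 also had their higher values in the frontal libraries.

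Of 6 other genes used as basophil markers, 5 were tested, and 2 were higher, 1 lower and 2 not called. These counts stand beside 29.6% of all genes tested called higher and 31.4% lower. Cd200r3, an activating receptor of basophils and mast cells, was higher by 1.37 ± 0.34 (edgeR adjusted p = 0.00382), and the cytokine gene Il4 by 0.61 ± 0.22 (0.0287). Neither was called on the leukocyte scale, where Il4 turned to -0.18 (adjusted p = 0.626). Itga2, an integrin gene that many adherent cells also express, was lower, at a log2 fold change of -4.15 ± 0.23 (adjusted p = 8.12e-08).

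Other genes used as mast cell markers, not all of them restricted to mast cells, were close to absent in most libraries. The 11 of them summed to 0.000325 to 0.000831% of counts in femur, 0.000185 to 0.000809% in frontal bone and 0.000877 to 0.00200% in parietal bone. The chymase gene Cma1 had 7, 9 and 6 counts in the femur libraries, 2, 28 and 4 in the frontal ones, and 46 and 85 in the parietal ones. Mrgprb1, a receptor gene of mast cells, had 0 counts in all 3 femur libraries, 0, 2 and 0 in the frontal ones, and 15 and 16 in the parietal ones, and it was called higher in parietal than in frontal bone (edgeR adjusted p = 0.0457, or 0.237 on the leukocyte scale). The tryptase gene Tpsb2 had 18, 11 and 3 counts in femur, 0, 20 and 0 in frontal bone, and 24 and 45 in parietal bone, and was not called against femur (adjusted p = 0.927). Frontal library 2 thus had more of these counts than the other 2 frontal libraries, and both parietal libraries had more Cma1 than any other library, also as CPM (3.52 and 8.25). Tpsb2 as CPM was 1.83 and 4.37 in the parietal libraries, against 3.09 in femur library 1 and 1.91 in frontal library 2, so the bones overlapped. Of the 11 genes, 5 were tested, and 3 were called higher in calvaria, Rgs13 (1.53 ± 0.55, adjusted p = 0.0286), Cma1 (1.58 ± 0.64, 0.0494) and Mrgprb1 (0.0405), none of them on the leukocyte scale. The share of all genes tested that was called higher in calvaria was 29.6%. Against femur, 0 of the 5 were called in frontal bone alone and 3, all higher, in parietal bone alone. Over all genes tested, 27.2% were called higher in frontal and 27.1% in parietal bone. In frontal bone Rgs13 had an adjusted p of 0.277, Cma1 of 0.615 and Mrgprb1 of 0.263. Cpa3 had 833 and 678 counts in the parietal libraries, many times the Cma1 counts, and the part of mature mast cells in its parietal level was not tested.

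Related pathways held genes called in both directions, as did all genes tested, of which 29.6% were called higher and 31.4% lower. Of 13 genes of IgE receptor signalling, 6 were higher, 3 lower and 4 not called, and those with the smallest p, Fyn (-2.01), Gab2 (-1.46) and Plcg1 (-1.61), all lower in calvaria, are expressed in many cell types. Fcer1g, the gamma chain that this receptor shares with other Fc receptors, named here after its value was seen, was higher by 1.38 ± 0.17 (edgeR adjusted p = 3.5e-05). Of 7 genes of histamine and lipid mediator synthesis, 6 were tested. Among them 3 were higher, including Alox5 (1.12) and Alox5ap (1.09) of leukotriene synthesis, and 1 was lower, Ptgs1 (-1.09), a cyclooxygenase gene. Hdc, the histidine decarboxylase gene whose product makes histamine, is also named after its value was seen and was not called (-0.02 ± 0.20, adjusted p = 0.948), at 530, 632 and 953 CPM in femur, 932, 663 and 932 CPM in frontal bone, and 649 and 506 CPM in parietal bone.

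Growth factors, receptors and signalling genes, taken as 1 list, gave calls in the direction of Kit. None of 15 was called higher in calvaria and 10 were called lower, with a median log2 fold change of -0.74. The 15 include the intracellular signalling genes Jak2, Stat5a, Stat5b, Sh2b3 and Cish, all but Stat5b among those called lower. The 3 with the smallest p were Il4ra, a receptor chain for interleukins 4 and 13 (-1.35 ± 0.13, edgeR adjusted p = 4.6e-06), Il1rl1, the interleukin 33 receptor of mast cells and basophils (-1.47 ± 0.16, 1.21e-05), and Csf2rb, the common beta chain of the receptors for interleukins 3 and 5 and GM-CSF (-1.05 ± 0.13, 3.11e-05). The ligand of KIT, Kitl, which stromal and endothelial cells make, was lower, at -0.82 ± 0.19 (adjusted p = 0.00288) and is named after its value was seen. Of 12 lineage transcription factors 4 were higher, 4 lower and 4 not called, shares near the 29.6% and 31.4% of all genes tested. Runx1 (-1.94) and Xbp1 (-0.81) were lower, and Lmo2 (1.26) was higher. Gata1, which acts in eosinophil, mast cell and red cell lineages, was higher by 1.62 ± 0.26 (adjusted p = 0.000209), beside erythroid genes of which 8 of 8 were higher, with a median of 1.97. Of 12 granule packaging and release genes 4 were higher, such as Vamp8 (0.66), 4 lower, such as Cd63 (-0.90) and Rab27b (-0.98), and 4 not called, which was again near the shares over all genes tested.

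**Figure D5:**
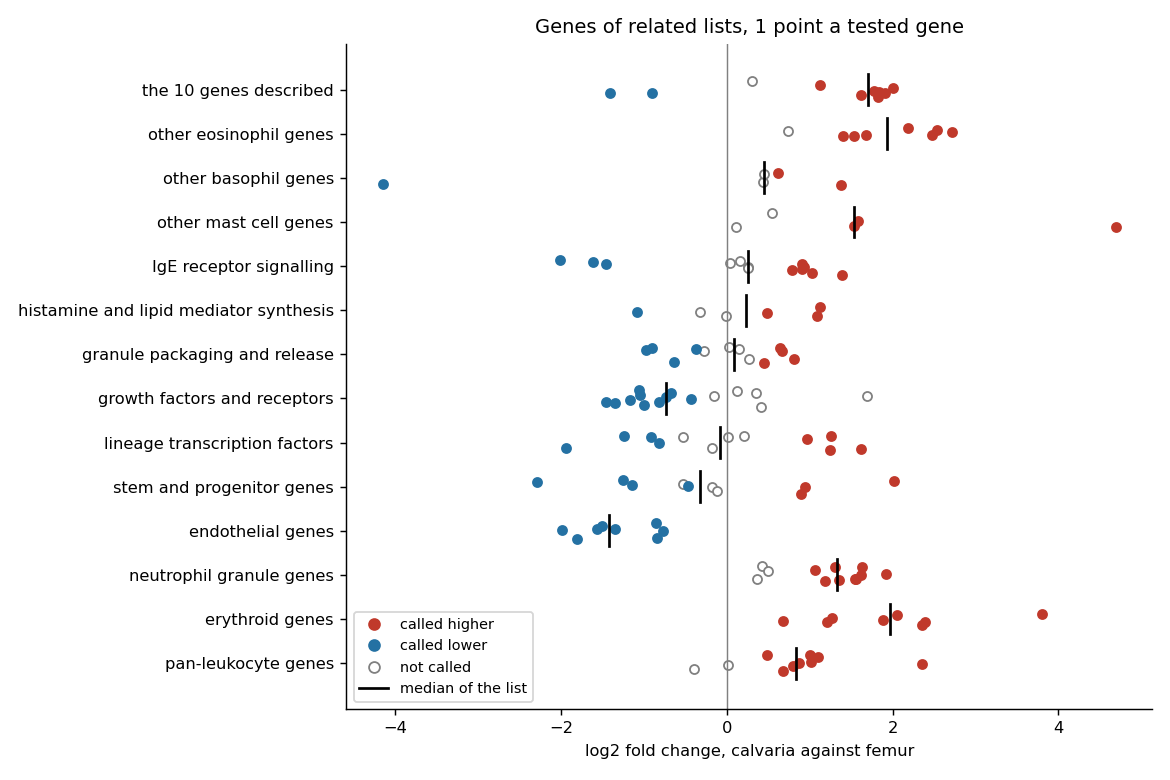
Log2 fold change of calvaria against femur (horizontal axis) for each tested gene of the 10 described and of 13 related lists (vertical axis). Filled points were called by edgeR at an adjusted p under 0.05, open points were not, and black bars are list medians. The medians of the eosinophil (1.93) and erythroid (1.97) lists lie near that of the 10 genes (1.70), and those of the endothelial (-1.42) and growth factor (-0.74) lists lie below 0.

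Neutrophil granule genes were also higher in calvaria, 9 of 12 with a median log2 fold change of 1.33, among them Ms4a3 (1.62), Ctsg (1.54) and S100a8 (1.92), and none was lower. Megakaryocyte genes gave 3 of 6 higher, with a median of 0.54, among them Ppbp (1.33), Pf4 (1.16) and Gp9 (0.80). Pan-leukocyte genes gave 8 of 10 higher, with a median of 0.83, Cd52 (2.36) having the smallest p, then Cd53 (0.80) and Ptprc (0.87). Among all genes tested, 29.6% were called higher in calvaria and 31.4% lower. Whether the 10 genes differ from these lists was not tested.

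For each of the 10 genes, the closest profile over the 8 libraries among 13122 other genes was found as the smallest root mean square difference of centred log2(CPM + 1) values. These genes were Rfc2 for Mcpt8 (0.119), Fam213b for Cpa3 (0.09), Hmgn3 for Ms4a2 (0.112), Snap47 for Fcer1a (0.134) and Tnfsf13b for Prss34 (0.156). For the eosinophil genes they were Tipin for Prg2 (0.105), Gzma for Prg3 (0.105) and Lgals3bp for Epx (0.16). Cfap43 was closest to Kit (0.099). With 8 libraries that differ mainly by bone, many genes have such profiles. The nearest of the other 9 genes to Epx, Prss34, was at 0.647, the farthest such distance of the 10.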

How the data were processed

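The authors deposited raw counts per gene for 8 libraries, in 43438 rows, 92 of them for spike-in controls. Per the labels' protocols, total RNA was made into Nextera XT libraries and read as paired ends. The submitters' processing notes list the builds GRCm38.p3 and mm10, the aligner STAR 2.5.2a, and edgeR, limma and DESeq2, without their roles. How reads were assigned to genes, and whether by strand, is not given in the sources used here. Reads of overlapping and antisense genes may therefore be mixed, but no exon of the 10 genes overlaps another gene in GENCODE M21.

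From these deposited counts, without spike-ins, all 8 libraries were fitted in edgeR 4.0.16 (R 4.3.3) with filterByExpr, TMM scaling and a robust quasi-likelihood model of the 3 bones, which left 5 residual degrees of freedom. The biological coefficient of variation was 18.6%. Benjamini-Hochberg adjustment ran over 15511 genes, with calls at an adjusted p under 0.05. Standard errors were computed as the fold change divided by the square root of F. CPM are on the TMM scale, and counting error limits genes of few counts. Libraries of the same bone differed beyond sampling noise, with chi-square values of at least 7.67 per degree of freedom. Library numbers, taken from the descriptions, were not used to pair the libraries in this fit, and whether they mark pairs is not known. The edgeR step was also run on counts simulated from this fit's own dispersions, with far fewer changed genes than were called here. That run does not test the calls on these data.

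Members and lists were chosen with earlier results of these data known. Named genes were all 10 members, up to 3 tested genes of each related list with the smallest p in calvaria against femur, and the nearest profile of each member among genes of at least 1 CPM. The nearest profile of Gata2 is not reported here. Any other gene named was chosen after its values were seen, including Tpsb2, Alox15, Il5ra and Gata1. Alternatives were DESeq2 1.42.0, other scalings, no filter, a replicate block, only the bones compared, and each library left out in turn. The deposited filtered counts and scaled values were not used here.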

Additional observations from a re-analysis of the deposited data

How the results depend on the processing

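Against femur, the number of the 10 genes called higher or lower stayed within 1.5 times its value under DESeq2, RLE factors, library totals alone, no filter and, where run, only the bones compared. On the leukocyte scale 5 genes were called higher in frontal bone, and Epx reversed to -0.54 in calvaria and -0.18 in frontal bone. Leaving out 1 library gave 7 to 8 genes higher and 2 lower in calvaria, 7 to 8 higher and 2 lower in frontal bone, and 6 to 7 higher and 1 to 2 lower in parietal bone, where 1 was left without parietal library 2. Parietal Epx ran from -0.31 to 0.12, above 0 without femur library 4. After bone means were removed, same-numbered libraries correlated at -0.12 to 0.149 and others at -0.149 to 0.21. With 2 or 3 libraries per bone, these values cannot show whether same-numbered libraries are paired. With the replicate block, parietal Epx was 0.061 and parietal Prss34 lost its call (0.73, adjusted p = 0.0792), while between frontal and parietal bone edgeR called 0 genes (3504 at an unadjusted p under 0.05). Frontal against parietal bone was the comparison that depended most on the setting, in the all-gene count. That count was 1118 in the reported fit, 2074 with DESeq2, 1904 without a filter, 0 on the leukocyte scale (2147 at an unadjusted p under 0.05) and 0 to 1963 with 1 library left out, being 0 without femur 2, frontal 1, parietal 2 or parietal 4. Of the 10 genes, DESeq2 called 2 higher and 1 lower in frontal bone, no filter called 2 higher, the calvarial libraries alone called 3 higher and 1 lower, and single omissions 0 to 1 each way. Differences near 0 reversed for Mcpt8 on the leukocyte scale (-0.027) and without frontal library 1 (range over omissions -0.054 to 0.132), for Gata2 without frontal library 1 (-0.018 to 0.507) and for Fcer1a without parietal library 2 (-0.399 to 0.047). The causes were not tested. Counts of 16 to 36 per femur library for Ms4a2, and of 17 to 34 for Fcer1a, limit the precision of these genes.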
